A study of Capra hircus and Bos taurus with 7 samples.

Results

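The arms of 4 microRNA (miRNA) hairpins, miR-21, miR-22, miR-151 and miR-423, were followed through small RNA libraries made from extracellular vesicles of milk powders. The members were chosen by name: every listed -5p or -3p row of these hairpins, plus miR-3600, whose reads overlap those of miR-22-3p. The rule gave 9 of the 364 mature miRNAs listed in each library, all under bovine names: bta-miR-21-5p, bta-miR-21-3p, bta-miR-22-5p, bta-miR-22-3p, bta-miR-151-5p, bta-miR-151-3p, bta-miR-423-5p, bta-miR-423-3p and bta-miR-3600. The prefix bta, for Bos taurus, is left out below. Powders had been reconstituted in water and the vesicles, membrane-bound particles released by cells, isolated by size exclusion chromatography. There were 7 libraries: 3 from whole milk powder and 3 from skimmed milk powder, both labelled goat (Capra hircus), and 1 from a commercial bovine powder (Bos taurus). The labels give no breed, age, lactation stage or lot, and each library's starting material is a powder product, so animals cannot be told apart. The letters A to C of each goat powder are not explained in the labels, so that p-values measure the spread between libraries only, and this spread may be technical.

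A miRNA gene is transcribed as a longer RNA that folds into a hairpin. Drosha and Dicer cut the hairpin into a short duplex, and 1 strand of it, from the 5p or the 3p side, is usually kept in an Argonaute protein while its partner is lost. Some hairpins keep a single arm almost entirely, and others load both. The arms have different seeds, the short stretch that pairs with target mRNAs, so the balance of arms decides which targets a hairpin can reach. Of the hairpins described here, miR-21 is known as a growth-promoting miRNA that is widespread in epithelia and body fluids, and its 5p arm is the usual guide strand. The usual guide of miR-22 is its 3p arm. Both arms of miR-151 and of miR-423 are commonly recovered from tissues.

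In the goat annotation (RefSeq, assembly ARS1.2), used for names and neighbours only, MIR151 lay inside the span of PTK2, the gene of focal adhesion kinase. MIR423 lay inside the span of NSRP1, which codes for a splicing regulator. MIR21 lay next to VMP1, and MIR22 between TLCD2 and WDR81. No coordinates are given, since no source used here names the build of the counts.

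Library totals ranged from 5675489 to 11963849 miRNA reads. At these totals 3 reads, the limit that a count of 0 allows, equal 0.251 to 0.529 CPM (counts per 1000000 miRNA reads). Together the 8 arms took 11.1% ± 0.188 (SD, n = 3) of miRNA reads in whole powder, 9.90% ± 0.942 (SD, n = 3) in skimmed powder and 8.45% in the bovine library. As a check of the tissue, all 7 miRNAs of a mammary epithelium and milk list (among them miR-148a, miR-200c and miR-375) were present in every library, with 14.4% to 16.7% of reads in whole, 15.4% to 16.8% in skimmed and 13.5% in bovine powder. Leukocyte miRNAs (5 of 5 listed) took 0.275% to 0.287% of reads in whole, 0.316% to 0.338% in skimmed and 0.0105% in bovine powder, where miR-142-3p and miR-150 were at 0. Stromal and endothelial miRNAs (3 of 6 listed) took 0.149% to 0.165%, 0.169% to 0.246% and 0.00172%, with miR-126-3p at 0 in whole and bovine powder. Of the red cell miRNAs only miR-486 was listed (1 of 3), with 0.00236% to 0.00728% of reads in whole and 0.00156% to 0.00386% in skimmed powder. Its share in bovine powder, 1.76e-05%, equals 1 read, which is under the limit of 3 reads given above. The part of these other cell types in the results on the arms was not tested.

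The hairpins fell into 2 kinds. In miR-21 and miR-22 nearly all reads came from a single arm, while miR-151 and miR-423 gave many from both, at least 1664 CPM for each arm in every library. By mean over the 6 goat libraries, miR-21-5p held place 3 among the 364 miRNAs, miR-423-5p place 15, miR-423-3p place 20, miR-3600 place 25, miR-22-3p place 26, miR-151-5p place 39 and miR-151-3p place 43. The minor arms miR-22-5p and miR-21-3p held places 145 and 242. In that order the goat ranges of miR-423-3p (8228 to 11374 CPM), miR-3600 (5634 to 9692 CPM) and miR-22-3p (5634 to 9692 CPM) overlapped. So did those of miR-151-5p and miR-151-3p, at 3672 ± 381 and 3473 ± 524 CPM (SD, n = 6). The other neighbours among the abundant members did not overlap.

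**Figure D1:**
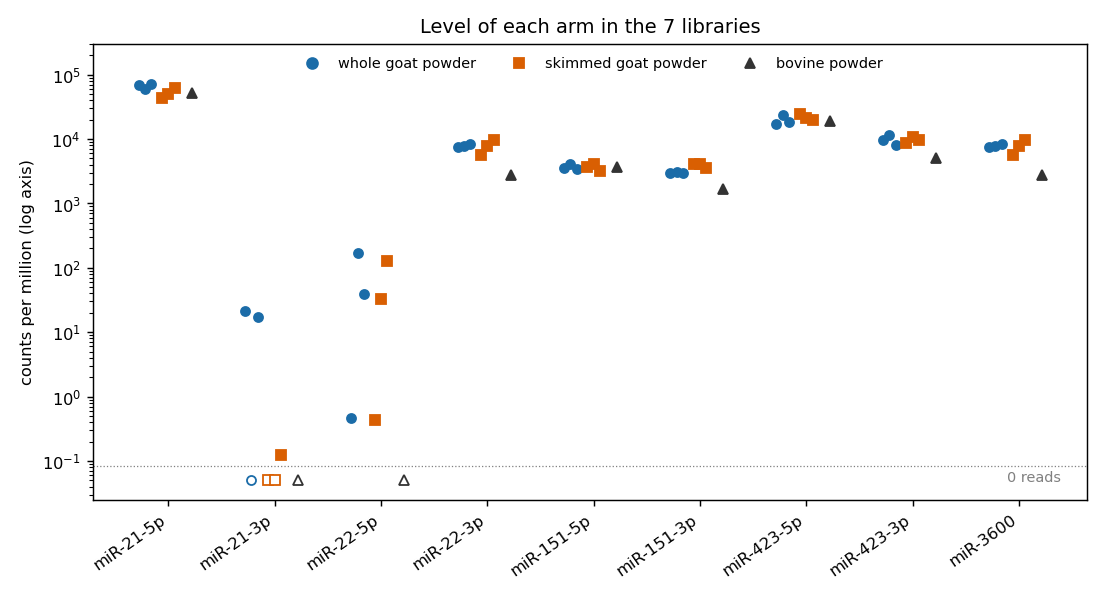
CPM (log axis) of the 9 miRNAs, 1 point per library, with whole goat, skimmed goat and bovine powder as circles, squares and triangles. Open symbols under the dotted line are libraries with 0 reads: miR-21-3p reaches at most 21.3 CPM while miR-21-5p lies between 42799 and 72022 CPM in every goat library.

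miR-21 was almost wholly a 5p hairpin. miR-21-5p stood at 68856, 59857 and 72022 CPM in whole libraries A, B and C, and at 42799, 50688 and 62231 CPM in skimmed libraries A, B and C. The whole libraries were mostly the higher ones, but skimmed C lay above whole B, so the powders overlapped. In the bovine library miR-21-5p stood at 52140 CPM (95% Poisson interval 51952 to 52328, for counting error only), within the goat range.

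Its partner miR-21-3p was read 140, 0 and 205 times in whole libraries A, B and C, and 0, 0 and 1 times in skimmed libraries A, B and C. The bovine library had 0 reads, which allows up to 0.529 CPM. Whole A and whole C were thus the libraries that held this arm, at 21.3 and 17.1 CPM, and whole B, which was deeper than whole A, held none. Per read of miR-21-3p there were 3227 reads of miR-21-5p in whole A and 4203 in whole C. In whole B the ratio was at least 202379-fold, computed against a floor of 3 reads in that library. The same floor gave at least 132467-fold in skimmed A, 139983-fold in skimmed B and 98640-fold in bovine. The single read of skimmed C gave a ratio of 494975 (95% binomial interval 88838 to 19550508).

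miR-22 was the mirror image, with nearly all reads on the 3p side. miR-22-3p stood at 7571, 7813 and 8246 CPM in whole libraries A, B and C, and at 5634, 7833 and 9692 CPM in skimmed libraries A, B and C. The skimmed libraries lay on both sides of the whole ones, with skimmed A the lowest and skimmed C the highest of all 6. The bovine library, at 2727 CPM (95% Poisson interval 2685 to 2771), lay under every goat library, and the lowest goat library was 2.07-fold above it.

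The minor arm miR-22-5p was read 3, 1711 and 473 times in whole A, B and C (estimated reads, rounded), and 4, 270 and 1007 times in skimmed A, B and C. Libraries B and C of both powders held it, at 32.6 to 169 CPM, and library A of both powders was close to empty, at 0.457 CPM (whole) and 0.431 CPM (skimmed). The 5p share of the hairpin's reads was 0.00604%, 2.11% and 0.477% in whole A, B and C, and 0.00765%, 0.414% and 1.29% in skimmed A, B and C. The bovine library had 0 reads of this arm against 15480 of miR-22-3p, so that the 3p arm was at least 5160-fold higher against the floor of 3 reads. miR-22-3p varied far less than its partner, with an SD of 0.25 against 3.91 on the log2 CPM scale over the goat libraries. The minor arms of miR-21 and miR-22 appeared mostly in different libraries: beyond 4 reads, whole A held only miR-21-3p, whole B, skimmed B and skimmed C held only miR-22-5p, and whole C held both.

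The rows of miR-22-3p and miR-3600 carried nearly the same values, as rows that share their reads would. miR-3600 exceeded miR-22-3p by 511, 314 and 3 reads in whole A, B and C and by 1, 111 and 0 reads in skimmed A, B and C. In 2 of the 7 libraries, skimmed C and the bovine library, the values were equal (within 1e-06). Every one of these differences was a whole number although none of the values themselves was, and the largest, in whole A, came to 1.03% of the row. The log2 ratio of miR-22-3p to miR-3600 lay between -0.015 and 0. How the deposited counting split the reads is not known, so the level of either row alone is uncertain. Summed, the rows held 15790 ± 647 CPM in whole (SD, n = 3), 15444 ± 4064 CPM in skimmed (SD, n = 3) and 5455 CPM in bovine powder. Fractional values, of the kind left when a read is divided between names, were the rule for the abundant members. miR-21-5p, miR-151-5p, miR-151-3p and miR-423-5p were whole numbers in 0 of 7 libraries and miR-423-3p in 1, against 36.9% to 46.7% of all values above 0 in a library. That share takes in rows of every level, down to single reads, so it is not matched to the abundant members. The minor arms were whole more often, miR-21-3p in 7 of 7 libraries and miR-22-5p in 4 (counts of 0 included).

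miR-151 gave its arms in nearly equal amounts. miR-151-5p stood at 3564, 4042 and 3379 CPM in whole A, B and C and at 3718, 4161 and 3171 CPM in skimmed A, B and C. These values overlapped fully. miR-151-3p stood at 2996, 3117 and 2990 CPM in whole A, B and C and at 4036, 4153 and 3548 CPM in skimmed A, B and C. Here every skimmed library lay above every whole library, and the whole libraries differed little among themselves. Powders that did not overlap in CPM were found for 20.1% of the 209 miRNAs tested below.

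The balance of miR-151 thus leaned to 5p in whole powder and was close to even in skimmed powder. The 5p share of its reads was 54.3%, 56.5% and 53.1% in whole A, B and C, and 47.9%, 50.0% and 47.2% in skimmed A, B and C, with means of 54.6% ± 1.72 and 48.4% ± 1.48 (SD, n = 3 each). All whole libraries lay above all skimmed ones. Among the 9 hairpins compared below, 22.2% had powders that did not overlap in the arm ratio. The difference for miR-151 did not pass the test over those 9 hairpins (limma adjusted p = 0.69). In the bovine library the 5p share was 69.2% (95% Clopper-Pearson interval 68.6% to 69.7%, counting error only), beyond every goat library.

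miR-423 gave more 5p than 3p in every library. miR-423-5p stood at 17232, 23842 and 18379 CPM in whole A, B and C and at 24605, 21145 and 19956 CPM in skimmed A, B and C. miR-423-3p stood at 9655, 11374 and 8228 CPM in whole A, B and C and at 8802, 10902 and 9712 CPM in skimmed A, B and C. The powders overlapped for both arms. The 5p share was 64.1%, 67.7% and 69.1% in whole A, B and C, and 73.7%, 66.0% and 67.3% in skimmed A, B and C. Skimmed A was the goat library with the most 5p, and the others of both powders were mixed. The bovine share was 78.8% (95% Clopper-Pearson interval 78.5% to 79.0%), again beyond every goat library.

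**Figure D2:**
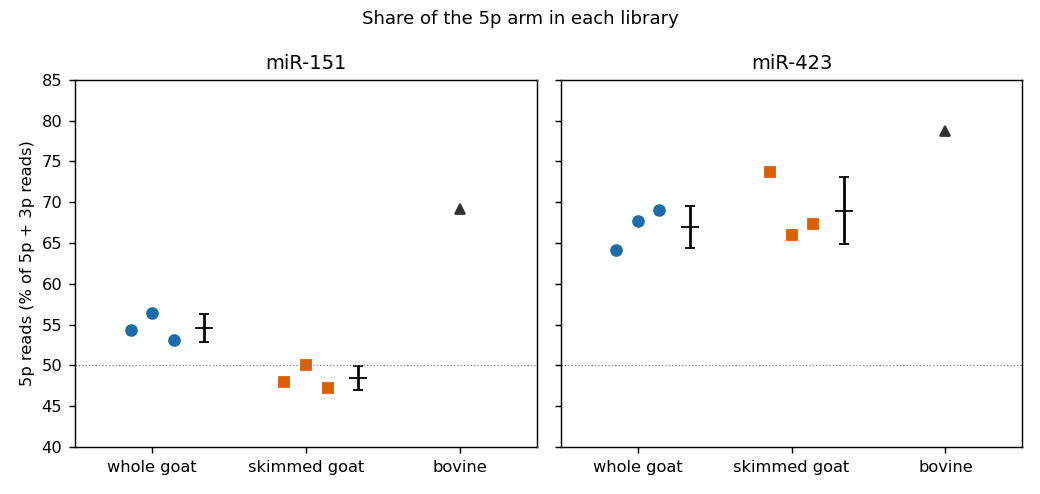
Reads of the 5p arm as a percent of 5p plus 3p reads for miR-151 (left) and miR-423 (right), 1 point per library; black marks are means with SD over 3 goat libraries, and the dotted line is at 50%. For miR-151 the whole libraries (53.1% to 56.5%) lie above the skimmed ones (47.2% to 50.0%), a difference that did not pass over 9 hairpins (limma adjusted p = 0.69). For miR-423 the goat powders overlap, and the bovine library is the highest in both.

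Among all hairpins listed with both arms, miR-151 and miR-423 had the lowest spread in the arm ratio. The files hold 18 such hairpins, 4 of them described here. Over the 6 goat libraries the log2 ratio of 5p to 3p reads (0.5 reads added to each arm) had an SD of 0.21 for miR-151 and 0.22 for miR-423, the lowest and second lowest of the 18. The 14 others had SDs from 1.24 to 7.31, with a median of 3.59 (libraries with 0 reads on both arms left out). That of miR-22, with neither arm at 0 in goat, was 3.62. Many of the 14, among them miR-296 with the highest SD, had an arm at 0 in some goat library. Those without had SDs of 1.24 (miR-362), 1.33 (let-7a), 2.95 (miR-6119), 4.35 (miR-29d) and 4.67 (miR-27a). Of these, miR-29d-5p was at 0.5 reads in whole A, whole C and skimmed B. miR-27a-5p was at 1 read in whole A and skimmed B. The SDs of miR-29d and miR-27a thus also depend on counts near the 0.5 reads added. Where an arm is at 0, as miR-21-3p is in 3 goat libraries, the ratio is set by the 0.5 reads added. SDs of such hairpins, and the median and upper limit that include them, are therefore no measure of balance. None is given for miR-21. The levels differ, however: the weaker arm averaged 3473 CPM for miR-151 and 9779 CPM for miR-423, but at most 111 CPM for any of the 14 others, 61.4 CPM for miR-22 and 6.43 CPM for miR-21. Steadiness and level of the weaker arm therefore cannot be told apart here. For miR-151 the ratio varied about as much as the 3p arm alone, whose log2 CPM had an SD of 0.21, and the 5p arm had an SD of 0.15.

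Of the other hairpins with both arms at a mean of at least 10 CPM in goat, let-7a had the highest mean 5p share, 99.9%, followed by miR-362 at 65.6%. The lowest were miR-27a at 5.08% and miR-369 at 11.99%. miR-362 and let-7a were also the steadiest of these, with SDs of the log2 ratio of 1.24 and 1.33, and miR-369 and miR-27a the most variable, at 4.80 and 4.67.

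**Figure D3:**
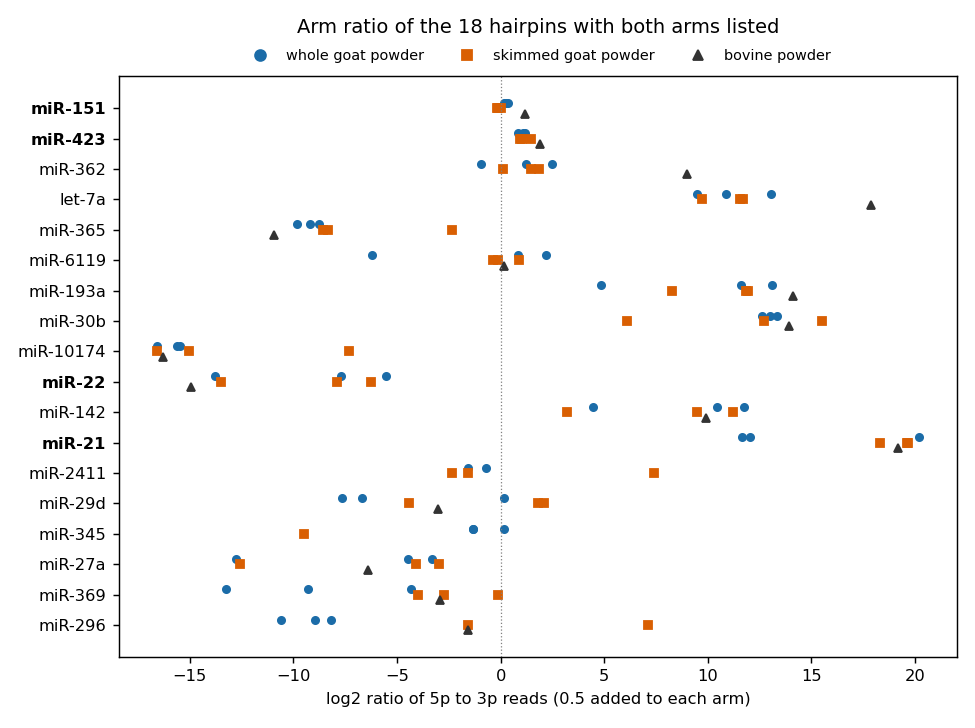
The log2 ratio of 5p to 3p reads (0.5 added to each arm) of the 18 hairpins with both arms listed, 1 point per library with reads on either arm, ordered from the lowest to the highest SD over the goat libraries; names in bold are the 4 hairpins described. miR-151 and miR-423 hold all their goat points within 0.54 and 0.65 log2 units while those of miR-22 span 8.26, and a point with an arm at 0, as for miR-21 in 3 goat libraries, is placed by the 0.5 added.

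The goat powders were then compared over all miRNAs, to ask whether vesicles of skimmed powder carry other amounts than those of whole powder. With edgeR's quasi-likelihood test on rounded estimated counts, 0 of the 8 members that passed the filter on low counts had an adjusted p (Benjamini-Hochberg) under 0.05, where 0.478% of all 209 tested miRNAs did (1 miRNA, not a member). The ninth, miR-21-3p, did not pass the filter. At an unadjusted p under 0.05, 1 of the 8 members was found, against 10.5% of all tested. The median log2 fold change was 0.08 over the 8 and 0.03 over the 209, and the median SE was 0.15 and 0.69.

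The member with that low p was miR-151-3p, at a fitted 1.38-fold of its whole-powder level in skimmed powder. Its mean was 3034 ± 71.7 CPM in the whole and 3912 ± 321 CPM in the skimmed libraries (SD, n = 3 each), and edgeR put the log2 fold change at 0.46 ± 0.12 (SE; adjusted p = 0.12). DESeq2's Wald test on the same 209 miRNAs did call it (adjusted p = 0.048), as 1 of 12 calls, or 5.74% of those tested. Across the alternatives its adjusted p lay between 0.048 and 0.37. It was the 1 tested member whose powders did not overlap in CPM, as was so for 20.1% of all tested miRNAs, so that 1 of 8 is no larger a share. Its partner miR-151-5p had a log2 fold change of 0.10 ± 0.14 (SE; edgeR adjusted p = 0.94).

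None of the other members came near the threshold. miR-21-5p, the most abundant, averaged 66912 ± 6311 CPM in the whole and 51906 ± 9773 CPM in the skimmed libraries, and edgeR put the log2 fold change at -0.28 ± 0.16 (SE; adjusted p = 0.57). miR-423-5p had 0.25 ± 0.15 (adjusted p = 0.65) and miR-423-3p 0.10 ± 0.13 (0.94), on the log2 fold change scale of edgeR. For miR-22-3p the log2 fold change was 0.05 ± 0.17 and for miR-3600 0.05 ± 0.17 (edgeR adjusted p = 0.96 for each), and both turned below 0 with library totals or upper-quartile scaling. miR-22-5p, at -0.30 ± 1.94 (edgeR adjusted p = 0.97), had an SE too wide to read a direction.

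**Figure D4:**
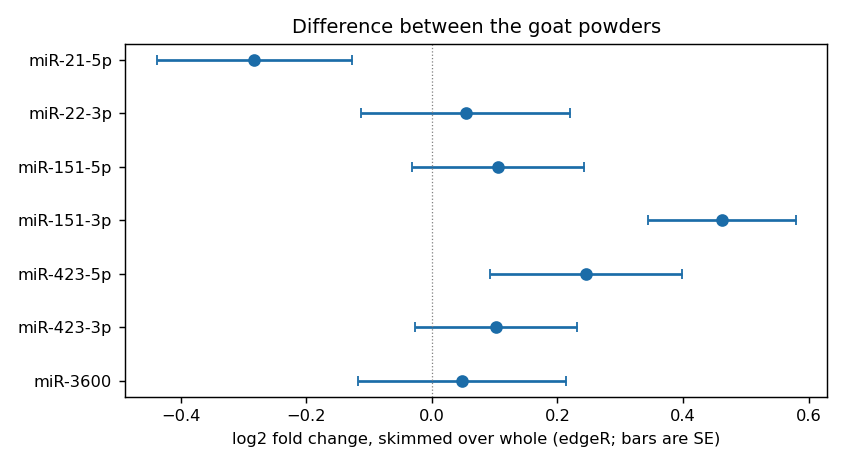
Log2 fold change of skimmed over whole goat powder from edgeR, with bars of 1 SE, for the 7 abundant members (miR-22-5p, with an SE of 1.94, is left out). miR-151-3p lies farthest from 0, at 0.46; none had an adjusted p under 0.05.

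Whether the arm balance itself differed between the goat powders was asked of the log2 ratio of 5p to 3p reads, a value taken within each library without scaling. With limma over the 9 hairpins that had both arms at a mean of at least 10 CPM, 0 passed an adjusted p of 0.05 (0.0%), and 0 had an unadjusted p under 0.05. For miR-151 the mean log2 ratio was 0.27 ± 0.10 in whole and -0.09 ± 0.09 in skimmed (SD, n = 3 each). The difference, skimmed minus whole, was -0.36 ± 0.26 (SE), with a limma adjusted p of 0.69. In this fit the variance of each hairpin is drawn towards that of all 9. Over the 3 hairpins with both arms at 100 CPM or more, which are miR-151, miR-423 and miR-6119, the same difference of -0.36 had an SE of 0.08 and a limma adjusted p of 0.026. An exact two-sided permutation test gave p = 0.1, the smallest that 3 libraries against 3 allow. Powders did not overlap in the ratio for 2 of the 9 hairpins (22.2%), miR-151 and miR-369. The difference for miR-151 kept its sign without any 1 library, from -0.41 to -0.31.

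For miR-423 the mean log2 ratio was 1.02 ± 0.17 in whole and 1.16 ± 0.28 in skimmed (SD, n = 3 each). The difference of 0.14 ± 0.31 (SE) did not pass (limma adjusted p = 0.95; exact permutation p = 0.7), and without skimmed A it was -0.02. For miR-22 the difference of -0.21 ± 3.03 (SE; limma adjusted p = 0.95) was far smaller than its error, and it turned above 0 when whole B, whole C or skimmed A was left out, to 1.52, 0.44 and 1.93. miR-21 was not in this fit, because its 3p arm averaged 6.43 CPM.

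The bovine powder was described beside the goat libraries without a test, since 1 library has no replicate and species, product and library cannot be told apart. In this library the 3p arms of the balanced hairpins were low while their 5p arms were not. miR-151-3p stood at 1664 CPM (95% Poisson interval 1631 to 1698) against a goat mean of 3473 ± 524 CPM (SD, n = 6), with the lowest goat library 1.80-fold above it. miR-423-3p stood at 5142 CPM (95% Poisson interval 5083 to 5201) against 9779 ± 1199 CPM, with the lowest goat library 1.60-fold above it. Both 5p arms lay inside the goat range, miR-151-5p at 3733 CPM against 3672 ± 381 CPM, and miR-423-5p at 19060 CPM against 20860 ± 2937 CPM.

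The arm ratios of these hairpins in bovine powder lay beyond the goat range. The log2 ratio of miR-151 was 1.17 in bovine, above the goat mean by 1.08 (2.11-fold in the ratio) and above the highest goat library by 0.79. That of miR-423 was 1.89, above the goat mean by 0.80 (1.74-fold) and above the highest goat library by 0.41. Bovine ratios outside the goat range were found at 4 of the 9 hairpins of the fit (44.4%), all of them above it. Besides miR-151 and miR-423 these were let-7a and miR-362, above their highest goat library by 4.82 and 6.52. Their 3p arms had 2.64 (let-7a) and 4 (miR-362) estimated bovine reads. A bovine ratio further to 5p was thus not particular to the hairpins described here. miR-22, at 0 bovine reads of its 5p arm, was placed at the bound of 3 reads, which lay inside its goat range.

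Levels outside the goat range were common too. Of the 7 members with a goat mean of at least 100 CPM, 4 lay below the goat range in the bovine library (miR-22-3p, miR-3600, miR-151-3p and miR-423-3p), 3 within it and 0 above. Over all 126 miRNAs of that level 55.6% lay below the goat range, so the members' share is close to the background. Of the 4, miR-22-3p and miR-3600 had equal values in the bovine library and share their reads, so they are not separate results. The goat reads were counted under bovine names, and its part in these differences was not tested.

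**Figure D5:**
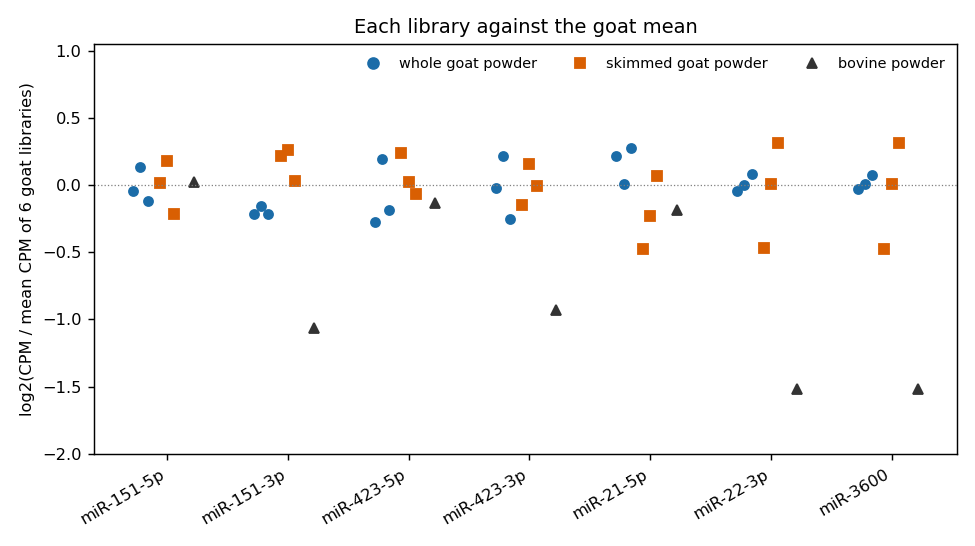
Each library's CPM divided by the mean CPM of the 6 goat libraries, on a log2 scale, for the 7 abundant members. The bovine triangles lie inside the spread of the goat points for miR-151-5p, miR-423-5p and miR-21-5p, and below all goat points for miR-151-3p, miR-423-3p, miR-22-3p and miR-3600.

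The patterns closest to the leading arms over the 7 libraries were found by the root mean square difference of log2(CPM + 1), after centring each miRNA on its own mean, among the 124 other miRNAs that averaged 100 CPM or more. For miR-21-5p these were miR-200a, an epithelial miRNA (difference 0.13), and miR-26a (0.15). For miR-22-3p they were miR-3600 (0.0051), which shares its reads, and miR-24-3p (0.20). For miR-151-5p they were miR-200b (0.13) and miR-652 (0.14), and its own partner miR-151-3p came at place 37 (0.42). For miR-423-5p the closest were miR-151-5p (0.16) and let-7a-5p (0.17), with its partner miR-423-3p at place 19 (0.34). The leading 5p arms of the balanced hairpins were thus nearer to each other than to their own 3p arms in this measure. The bovine library is 1 of the 7, and its low 3p arms, described above, enter this measure with a weight that was not tested. Its log2 arm ratio lay 1.08 (miR-151) and 0.80 (miR-423) above the goat mean, where the goat SDs were 0.21 and 0.22. The distances over the goat libraries alone were not computed. These values describe the libraries and were not tested.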

How the data were processed

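Small RNA was sequenced in single-end reads of 50 bases from vesicles of 7 milk powder libraries, per the labels' protocols. The deposited tables give estimated counts per mature miRNA, per the file headers and from their fractional values. The sources used here name no aligner, counter or genome build. CPM were computed here over all 364 miRNAs.

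Estimated counts were rounded and tested over the whole table over the 6 goat libraries with edgeR 4.0.16 (R 4.3.3; default filter, 209 miRNAs kept; TMM factors 0.928 to 1.067; quasi-likelihood test, Benjamini-Hochberg adjustment, threshold 0.05). The SE is the log2 fold change over the square root of F. Arm ratios were tested with limma 3.58.1, with a pseudocount of 0.5. DESeq2 1.42.0 was an alternative. Fits were checked on simulated data. The simulated arm ratios had the same SD for every hairpin, so the check does not cover a fit over hairpins of unequal spread. Intervals are exact (95%), and like the floors they cover counting error only, since PCR copies were not marked by molecular identifiers.

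No within-powder pair of libraries was a copy (chi-square per degree of freedom 497 to 1642). Across 126 miRNAs, libraries with the same letter deviated together with r = -0.09, 0.07 and 0.37, and those with different letters with r from -0.26 to 0.16. These values do not settle whether the letters pair. Letters were not taken as pairs because the labels do not state a pairing, and no label gives a batch. All members were named, with other hairpins and the closest patterns by rules on share, spread and distance. Members and lists were chosen with earlier results of these data known. A planned grouping by seed was not made, as no mature sequences were used here, and none are printed.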

Additional observations from a re-analysis of the deposited data

How the results depend on the processing

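The count of miRNAs that differed between the goat powders was small in edgeR and moved with the method. It was 1 as reported, 0 in edgeR with a replicate block, with upper-quartile scaling, with library totals, or with size factors of DESeq2, 2 with no filter on low counts, 12 with DESeq2's Wald test, and 0 to 1 with any 1 goat library left out. Upper-quartile scaling moved the median log2 fold change of all tested miRNAs by -0.15. Under it miR-151-5p turned to -0.055, miR-423-3p to -0.056, miR-22-3p to -0.092 and miR-3600 to -0.097. With library totals miR-22-3p turned to -0.029 and miR-3600 to -0.035, and with no filter to -0.0029 and -0.0086. With 1 library left out, miR-22-3p ranged from -0.14 to 0.19, miR-3600 from -0.14 to 0.19 and miR-22-5p from -1.98 to 1.43. The number of hairpins with a changed arm ratio was 0 as reported and 1 over the 3 hairpins with both arms at 100 CPM or more, where miR-151 passed (-0.36, limma adjusted p = 0.026). With 1 library left out the arm ratio difference ranged from -2.61 to 1.93 for miR-22 and from -0.024 to 0.24 for miR-423. In the replicate block that of miR-151 stayed at -0.36 (limma adjusted p = 0.63), and the block changed no call of a member. Over all 18 hairpins (libraries with 0 reads on both arms left out) miR-21 had a limma adjusted p of 0.58. Against the skimmed libraries alone, the bovine log2 ratio of miR-21-5p turned to 0.0065. DESeq2's Wald test brought miR-151-3p past the threshold (0.43, adjusted p = 0.048). The other 177 comparisons with an alternative kept direction and side of the threshold, or moved by less than 1 SD where there was no test. The causes were not tested. A count of 0 allows up to 0.251 to 0.529 CPM.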
